A study of Mus musculus with 30 samples.

Results

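Choroid plexus genes led by Ttr are described here in the hippocampus of TIMP2 KO and WT mice. There were 10 genes, taken by name from a table of 49315 genes by Ensembl identifier: Ttr, Clic6, Sostdc1, Enpp2, Prlr, 1500015O10Rik, Cldn2, Kl, Calml4 and Folr1. They had been chosen by their names and by their KO against WT values in the same libraries, so that contrast is given below as a description and supports nothing. Of the 10, 9 passed the filter on low counts, as did 16486 genes in all, and Folr1 did not. The filter needed a minimum level in at least as many mice as the smaller genotype holds.

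The libraries were bulk RNA-seq of hippocampus from C57BL/6J mice. There were 13 KO mice, 7 females and 6 males, and 17 WT mice, 7 females and 10 males. The KO line, obtained from the Jackson Laboratory, is a knockout of TIMP2, a secreted inhibitor of metalloproteinases, and the controls were WT littermates. No treatment or time point was part of the design. The study's methods state general age ranges for its mice, but which of them the sequenced mice had was not given in the sources used here. Mice are named by the number in their label.

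The choroid plexus is an epithelium folded into the brain ventricles that secretes cerebrospinal fluid and forms the barrier between blood and that fluid. The plexus of the lateral ventricle runs along the fimbria, beside the hippocampus. Its cells make transthyretin in large amounts and move ions, folate and hormones, and their identity depends on the transcription factor OTX2. In a whole tissue sample, more cells of a type and more RNA per cell cannot be told apart.

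The KO libraries held between 18345517 and 41081083 counts, and the WT libraries between 19445246 and 32098386. Mouse 11, a KO female, had the deepest library. Values are CPM, counts relative to the library total, scaled by edgeR's TMM factors. Timp2, the targeted gene, was at 158 ± 10.5 CPM in KO (SD, n = 13) and at 317 ± 39.8 CPM in WT mice (SD, n = 17). Timp2 in mouse 11 was at 161 CPM, within the KO range of 130 to 171 CPM, and no KO mouse reached the lowest WT value of 256 CPM. Timp2 transcript was thus still counted in every KO mouse. Counts per gene cannot show whether that transcript lacks the deleted part.

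The 10 genes lie on 9 chromosomes of GRCm38 and are all annotated as protein-coding. On the + strand, Clic6 was annotated at chr16:92485736-92541243, Sostdc1 at chr12:36314139-36318452, 1500015O10Rik at chr1:43730602-43742578 and Kl at chr5:150952607-150993817. Cldn2 at chrX:139800828-139811386 and Calml4 at chr9:62858080-62875921 are also on the + strand, and Folr1 at chr7:101858331-101870788 is on the - strand. Enpp2 and Prlr share chromosome 15, at chr15:54838901-54952892 on the - strand and chr15:10177238-10349180 on the + strand. Enpp2 exons overlap 345 bases of Gm26684 on the opposite strand, and Prlr exons overlap 203 bases of Gm21973 on the same strand, so their counts may include or lose reads there. No exon of the other 8 genes overlapped another annotated gene.

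RefSeq promoter windows on GRCm38.p6, from 250 bases before to 50 bases after a start, were at hand for 5 of the 10 genes. Windows for Calml4, 1500015O10Rik (Ecrg4 in RefSeq), Cldn2 and Prlr are shown because they had the highest rho with Ttr in WT mice among these 5, from 0.28 to 0.38, none of which passed after adjustment. Of the 3 starts of Prlr, the first and the second are shown. Each line gives the 250 bases before the start, and capitals mark a match to one of 3 motifs searched on both strands.
Calml4, chr9:62857854-62858103, + strand: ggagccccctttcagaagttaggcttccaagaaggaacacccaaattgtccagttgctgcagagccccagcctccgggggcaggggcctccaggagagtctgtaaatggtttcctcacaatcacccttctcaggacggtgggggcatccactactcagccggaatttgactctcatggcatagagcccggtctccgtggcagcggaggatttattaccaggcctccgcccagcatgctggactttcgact
1500015O10Rik, chr1:43730352-43730601, + strand: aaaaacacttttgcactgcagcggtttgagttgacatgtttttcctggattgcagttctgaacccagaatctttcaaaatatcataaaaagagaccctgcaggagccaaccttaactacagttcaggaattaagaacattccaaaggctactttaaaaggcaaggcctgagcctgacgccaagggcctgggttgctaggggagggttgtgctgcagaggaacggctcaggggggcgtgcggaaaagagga
Cldn2, chrX:139800558-139800807, + strand: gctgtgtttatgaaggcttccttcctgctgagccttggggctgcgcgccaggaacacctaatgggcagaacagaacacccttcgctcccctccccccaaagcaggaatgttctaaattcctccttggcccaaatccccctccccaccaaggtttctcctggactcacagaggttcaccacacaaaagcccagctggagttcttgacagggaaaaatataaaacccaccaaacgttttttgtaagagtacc
Prlr first start, chr15:10176988-10177237, + strand: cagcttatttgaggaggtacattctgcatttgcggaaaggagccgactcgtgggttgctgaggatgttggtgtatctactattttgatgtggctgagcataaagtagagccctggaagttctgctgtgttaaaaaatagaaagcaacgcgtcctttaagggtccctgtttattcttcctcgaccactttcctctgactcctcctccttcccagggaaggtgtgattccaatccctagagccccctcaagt
Prlr second start, chr15:10223656-10223905, + strand: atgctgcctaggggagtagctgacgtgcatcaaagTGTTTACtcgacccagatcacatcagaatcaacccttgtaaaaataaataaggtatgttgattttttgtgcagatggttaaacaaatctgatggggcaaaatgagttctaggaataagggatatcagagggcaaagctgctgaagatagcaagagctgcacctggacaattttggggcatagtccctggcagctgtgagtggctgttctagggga
The motifs were TAATCC for OTX2, GTAAACA for FOXJ1 and GTTGCC for RFX factors. The only match among the 7 windows of the 5 genes was a FOXJ1 match at the second start of Prlr. Over all 32851 windows, 7.06% held the OTX2 letters, 3.65% the FOXJ1 letters and 12.5% the RFX letters. A missing match says only that these letters are not in these windows.

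Ttr, annotated at chr18:20665280-20674321 on the + strand, encodes transthyretin, the carrier of thyroxine in cerebrospinal fluid. In KO mice Ttr ranged from 1.58 to 635 CPM with a median of 5.00 CPM, and in WT mice from 0.269 to 36.5 CPM with a median of 3.85 CPM. The counts behind these levels ran from 8 in WT mouse 21 to 26400 in mouse 11. Most mice of both genotypes lay in the same low range, and 4 KO mice stood above every WT mouse. These were mouse 11 at 635 CPM, mouse 5 at 123 CPM, mouse 1 at 82.4 CPM and mouse 20 at 63.6 CPM. The next was WT mouse 26 at 36.5 CPM. Of the 4 high KO mice, 11 and 5 were female and 1 and 20 were male. The other 9 KO mice lay between 1.58 and 13.6 CPM, inside the WT range. The study treated the date of harvest as a batch in part of its own work. That date is not in the labels, so whether the high mice shared a harvest could not be examined and its part in these levels was not tested.

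Clic6 encodes a chloride intracellular channel protein of the plexus epithelium. It ranged from 0.287 to 12.2 CPM in KO, with a median of 1.09 CPM, and from 0.202 to 1.72 CPM in WT mice, with a median of 0.823 CPM. The KO mice above every WT mouse were 1, 5, 11, 15 and 20, which are the 5 KO mice with the most Ttr. The WT mice with the most Clic6, 7 and 26, were also the WT mice with the most Ttr.

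Among secreted products, Enpp2 encodes autotaxin, which makes lysophosphatidic acid and is also made by oligodendrocytes. Enpp2 ranged from 97.6 to 421 CPM in KO, with a median of 128 CPM, and from 95.0 to 133 CPM in WT mice, with a median of 122 CPM. There were 6 KO mice above every WT mouse, namely 1, 5, 11, 15, 18 and 20. Sostdc1, a secreted antagonist of BMP and Wnt signalling, ranged from 1.90 to 8.47 CPM in KO (median 3.27) and from 1.75 to 3.65 CPM in WT mice (median 2.91). KO mice 5, 11 and 30 exceeded every WT mouse in Sostdc1, although mouse 30 had one of the lowest Ttr levels, 1.64 CPM. 1500015O10Rik, which encodes the secreted peptide precursor augurin, ranged from 0.211 to 8.28 CPM in KO (median 0.622) and from 0.269 to 1.95 CPM in WT mice (median 0.548). Only KO mice 5 and 11 exceeded the WT range, and KO mouse 18 lay below it.

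Among receptors, Prlr encodes the prolactin receptor, which is abundant in the plexus. Prlr ranged from 2.65 to 13.9 CPM in KO (median 4.22) and from 2.35 to 4.43 CPM in WT mice (median 3.43). KO mice 1, 5, 11, 20 and 27 exceeded the WT range, mice 20 and 27 by margins far below the spread between mice. Kl encodes Klotho, a co-receptor of FGF23 that neurons also make. Kl ranged from 22.2 to 40.2 CPM in KO (median 25.2) and from 20.6 to 29.1 CPM in WT mice (median 23.8). KO mice 5, 11, 15 and 18 exceeded every WT mouse in Kl, and the others overlapped the WT range. Folr1, the folate receptor that carries folate into cerebrospinal fluid, ranged from 0 to 3.39 CPM in KO (median 0.308) and from 0.0336 to 0.628 CPM in WT mice (median 0.157). KO mice 1, 5, 10, 11 and 20 exceeded the WT range in Folr1.

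Among junction and brush border genes, Cldn2 encodes claudin-2, a pore-forming tight junction protein. Cldn2 ranged from 0.121 to 3.20 CPM in KO (median 0.493) and from 0.156 to 0.886 CPM in WT mice (median 0.372). Only mice 1 and 11 exceeded the WT range. Calml4, a calmodulin-like protein of microvilli, ranged from 0.0548 to 1.25 CPM in KO (median 0.396) and from 0 to 0.977 CPM in WT mice (median 0.358). Mouse 11 alone exceeded the WT range in Calml4. Calml4 had 0 counts in WT mouse 21, which allows up to 0.101 CPM, and Folr1 had 0 counts in KO mouse 30, which allows up to 0.164 CPM, by a limit of 3 counts that covers counting error only.

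**Figure D1:**
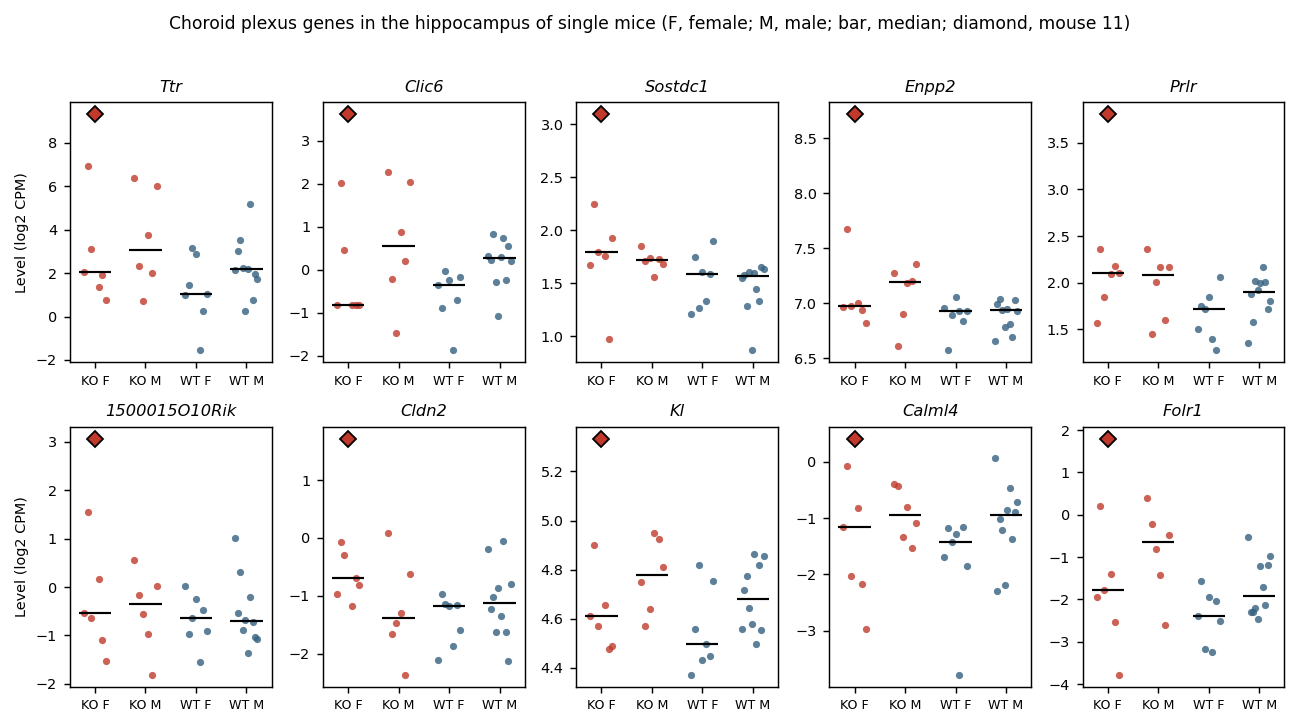
Level of each gene (log2 CPM, prior count of 2, vertical axes differ between panels) in single KO (red) and WT (blue) mice by sex, with group medians as bars. Mouse 11, the diamond, was the highest of 30 mice in all 10 panels. The remaining KO mice overlapped the WT mice in part. For Enpp2, KO mice 1, 5, 15, 18 and 20 also exceeded every WT mouse, and for Calml4 no other KO mouse did.

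Mouse 11 had the highest level of all 30 mice in each of the 10 genes. Its level stood at 165 times the WT median for Ttr, 21.7 times for Folr1, 15.1 times for 1500015O10Rik, 14.8 times for Clic6 and 8.61 times for Cldn2. The multiples were smaller for Prlr (4.06), Calml4 (3.49), Enpp2 (3.46), Sostdc1 (2.91) and Kl (1.69). Per exon length, on the RPKM scale, the mean levels in WT mice were 20.5 for Enpp2, 5.12 for Ttr, 2.67 for Kl and 1.55 for Sostdc1. The other 6 genes were below 1 RPKM on average in WT mice, with 1500015O10Rik at 0.738 and Folr1 at 0.0924.

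The spread between mice of 1 genotype differed widely among the genes. The biological coefficient of variation, edgeR's estimate of the relative spread between replicate mice, was 123% for Ttr, above 99.964% of all genes tested. It is 1 estimate over both genotypes with mouse 11 included. For Enpp2, the SD was 83.2 CPM in KO, 28.2 CPM in KO without mouse 11 and 11.0 CPM in WT mice. The coefficient was 72.8% for Clic6, 70.4% for 1500015O10Rik, 56.2% for Cldn2 and 50.8% for Calml4. For Prlr, Enpp2, Sostdc1 and Kl it lay between 12.6% and 29.9%, against a median of 6.97% over all genes tested.

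KO against WT was the contrast used to choose the genes, so the following values are descriptive. With all 30 mice, 7 of the 9 genes tested were higher in KO at an unadjusted p under 0.05 in edgeR's quasi-likelihood test, where 2.47% of all genes were. These 7 were Ttr, Clic6, Sostdc1, Enpp2, Prlr, 1500015O10Rik and Cldn2. None of the 9 was lower, where 2.56% of all genes were. After Benjamini-Hochberg adjustment Ttr alone remained under 0.05, where 0.0243% of all genes were higher. With sex as a covariate, or by limma voom, no gene of the 9 remained under 0.05 after adjustment. The log2 fold change was 3.67 ± 0.73 for Ttr and 1.52 ± 0.42 for Clic6 (SE, 13 KO and 17 WT mice). The other 7 genes had values between 0.13 and 1.17, and the median of the 9 was 0.52, against 0.00 over all genes tested.

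Without mouse 11 the log2 fold change of Ttr was 2.14 ± 0.59 and that of Clic6 0.88 ± 0.35 (SE, 12 KO and 17 WT mice). Enpp2 moved from 0.43 to 0.21, Sostdc1 from 0.44 to 0.26 and Prlr from 0.52 to 0.23. 1500015O10Rik moved from 1.17 to 0.33 and Cldn2 from 0.93 to 0.31, a larger drop. The count of genes higher at an unadjusted p under 0.05 fell from 7 to 5 without this mouse (Ttr, Clic6, Sostdc1, Enpp2 and Prlr), where 2.53% of all genes were, and none of the 9 had an adjusted p under 0.05. The median of the 9 was then 0.26. Measured by medians, which 1 mouse hardly moves, KO stood at 1.30 times WT for Ttr, 1.32 times for Clic6 and 1.05 times for Enpp2. The ratio of means for Ttr was 12.0 with and 4.31 without mouse 11. Folr1 was tested only with other filters: its log2 fold change in DESeq2 was 1.70 ± 0.50 (SE).

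**Figure D2:**
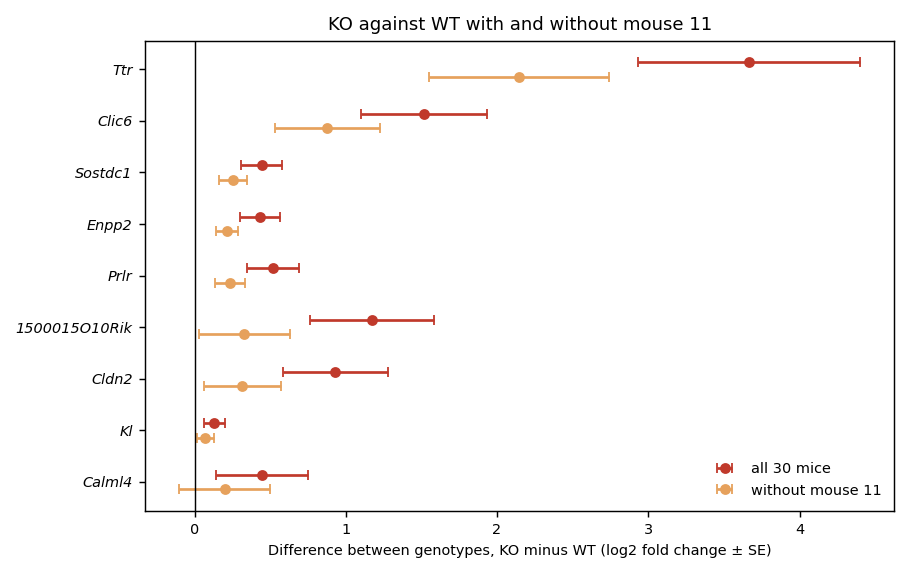
Difference between genotypes, KO minus WT (log2 fold change, horizontal axis, bars are SE), for the 9 genes tested, with all 30 mice and without mouse 11. All 9 values were above 0 in both fits, Ttr moved from 3.67 to 2.14, and 1500015O10Rik moved from 1.17 to 0.33.

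By sex, females alone had 7 of 8 genes tested higher in KO at an unadjusted p under 0.05, where 2.33% of all genes were. Females alone without mouse 11 had 3 of 8 (Ttr, Prlr and Cldn2), where 2.12% of all genes were higher. Males alone, a comparison without mouse 11, had 5 of 10 (Ttr, Clic6, Sostdc1, Enpp2 and Folr1), where 1.61% of all genes were higher. In males the log2 fold change was 1.87 ± 0.68 for Ttr (SE, 6 KO and 10 WT mice). It was -0.02 ± 0.37 for 1500015O10Rik and -0.10 ± 0.38 for Cldn2, both within 1 SE of 0.

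Whether the genotype difference itself differed between the sexes was asked by the interaction term. It is made of the same KO and WT values that chose the genes, which mouse 11 leads among females, so its values are descriptive as well. No gene of the 9 passed after adjustment: edgeR gave each a Benjamini-Hochberg adjusted p of 0.9995, and 0 genes passed over the whole table by edgeR or by DESeq2. At an unadjusted p under 0.05, 4 of the 9 had a larger KO minus WT difference in females, where 1.39% of all genes did. These were Ttr, Prlr, 1500015O10Rik and Cldn2. Without mouse 11 none of the 9 did, where 1.16% of all genes did, and the interaction of Ttr moved from 3.16 ± 1.53 to 0.92 ± 1.26 (log2, SE).

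Sex itself played no part in the choice of the genes. In a fit with genotype and sex, 0 of the 9 genes differed between females and males at a Benjamini-Hochberg adjusted p under 0.05 by the same edgeR test, where 0.218% of all genes did. At an unadjusted p under 0.05 the count was also 0, where 9.77% of all genes differed, and DESeq2 gave 0 as well. Mouse 11 is a female, and without it Clic6 was lower in females by 0.81 ± 0.34 and Kl by 0.14 ± 0.05 (log2, SE). At an unadjusted p under 0.05 these 2 of the 9 genes were lower in females, where 4.16% of all genes were. Their adjusted p values in edgeR's quasi-likelihood test were 0.456 and 0.367.

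In WT mice alone, Clic6 in the 7 females lay between 0.202 and 0.906 CPM with a median of 0.708 CPM, and in the 10 males between 0.402 and 1.72 CPM with a median of 1.13 CPM. The female minus male difference was -0.83 ± 0.26 on the log2 scale (SE), with an adjusted p of 0.772 in edgeR's quasi-likelihood test. At an unadjusted p under 0.05, 2 of the 7 genes tested in WT mice alone, Clic6 and Kl, were lower in females, where 2.64% of all genes were. Ttr in WT females had a median of 1.96 CPM and in WT males of 4.42 CPM, a log2 difference of -1.16 ± 0.60 (SE) with an adjusted p of 0.909 in the same edgeR fit. The ranges of the sexes overlapped for both genes.

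Each gene was compared with Ttr separately in WT and in KO mice on log2 CPM, in 18 relations. The permutation tests were 2-sided with 100000 resamples and Benjamini-Hochberg adjustment over the 18. The KO values chose the genes, and the KO mice with the most Ttr carry much of that KO against WT contrast. The relations in KO mice are therefore given as a description, without a test. In the 17 WT mice Clic6 correlated with Ttr at r = 0.83 (permutation p = 4e-05, adjusted p = 0.00036) and at rho = 0.74 (permutation p = 0.00091, adjusted p = 0.00819). Leaving out the 2 WT mice with Ttr farthest from the median gave r = 0.70 (adjusted permutation p = 0.0383). Calml4 reached r = 0.62 (permutation p = 0.0111, adjusted p = 0.0181) and rho = 0.38 (permutation p = 0.129, adjusted p = 0.215). The adjustment for r pooled the KO relations, all with smaller p values, which lowered the adjusted p of Calml4. The r of Calml4 fell to 0.20 without those 2 mice, so this relation rested on them. The other 7 genes had r between 0.15 and 0.51 in WT mice and none passed after adjustment. Enpp2 and Kl were at r = 0.18 and Sostdc1 at r = 0.15, with adjusted permutation p values of 0.512, 0.512 and 0.569.

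In the 13 KO mice r with Ttr was 0.98 for Clic6, with a rho of 0.95. For Enpp2, r was 0.865 and rho was 0.78. The others lay between r = 0.68 for Sostdc1 and r = 0.84 for 1500015O10Rik. By rank Sostdc1 had a rho of only 0.31.

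Ttr in KO mice falls into a group of 4 high mice and a group of 9 lower ones, and the relations over all 13 rest largely on the high mice. Without mouse 11, r was 0.97 for Clic6, 0.81 for Enpp2, 0.71 for 1500015O10Rik and 0.70 for Folr1. Without the 2 KO mice farthest from the median Ttr it was 0.97 for Clic6 and 0.71 for Enpp2. The 9 lower KO mice are a set cut on Ttr itself after the data were seen, so their values are descriptive as well. Among them Clic6 had r = 0.90 and rho = 0.90 with Ttr. The other 8 genes had r between -0.20 and 0.46 there.

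**Figure D3:**
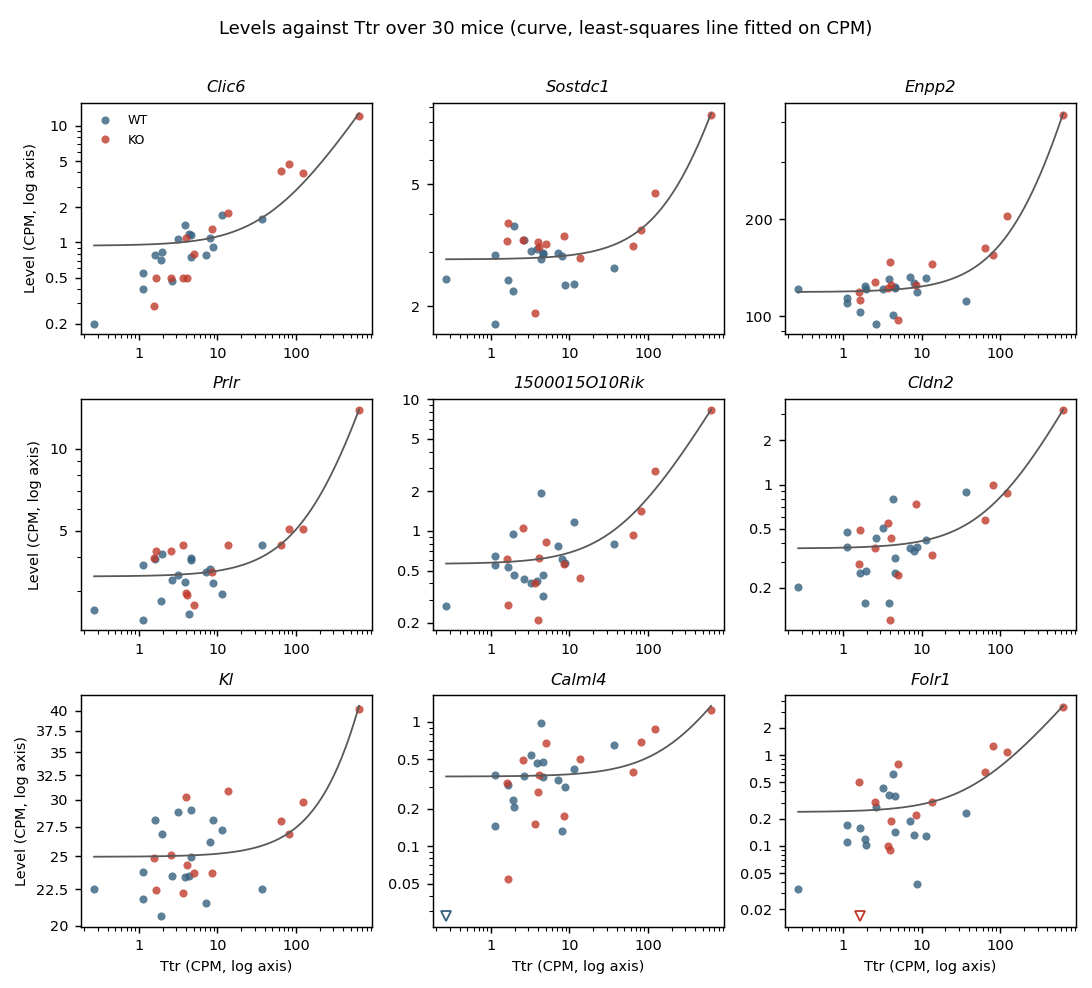
Level of each of the 9 other genes (CPM, log axis) against Ttr (CPM, log axis) in 30 mice, KO in red and WT in blue, with the least-squares line of level on Ttr drawn as a curve and values of 0 drawn as open triangles at the lower edge. Clic6 follows Ttr over the whole range, while the other genes follow it less closely among the mice with little Ttr, and mouse 11, at the right edge, is the highest in each panel.

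A least-squares line of each gene's CPM on that of Ttr over the 30 mice gives the level left at a Ttr of 0. Most mice had little Ttr, so this level lies near the mean of those mice by construction. For Enpp2 that level was 119 CPM, or 101 ± 2.2% of the WT mean (SE). The share was 100 ± 2.1% for Kl, 100 ± 3.4% for Prlr and 103 ± 3.5% for Sostdc1. For Clic6 it was 102 ± 14.7%, and 76.7 ± 11.2% without mouse 11. For 1500015O10Rik it was 84.5 ± 10.8%, for Cldn2 95.1 ± 8.6%, for Calml4 97.9 ± 10.8% (88.4 ± 11.2% without mouse 11) and for Folr1 111 ± 19.8%. The slope was 48.3 CPM of Enpp2 for each 100 CPM of Ttr, and 2.47 CPM of Kl, 1.87 CPM of Clic6, 1.65 CPM of Prlr and 1.23 CPM of 1500015O10Rik. Without mouse 11 the slope of Clic6 was 3.65 CPM. A Theil-Sen line, which outlying mice hardly move, had a slope of 5.45 CPM for Clic6 and of 5.24 CPM for Kl.

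The ratio of the extra signal to the extra Ttr differed between mice and genes. Above the WT median, Enpp2 gained 47.4 CPM for each 100 CPM of Ttr in mouse 11, 69.3 in mouse 5, 42.4 in mouse 1 and 69.6 in mouse 20. Prlr gained 1.66, 1.37, 2.07 and 1.67 CPM in the same mice, and 3.05 CPM in WT mouse 26. Clic6 gained 1.80 and 2.64 CPM in mice 11 and 5, both females, and 5.00 and 5.43 CPM in mice 1 and 20, both males. It gained 2.33 CPM in WT mouse 26, a male. Mice 11 and 5 also had the most Ttr, so sex and Ttr level cannot be told apart here. In WT mouse 26, with the most Ttr of its genotype, 6 genes (Clic6, Prlr, Cldn2, 1500015O10Rik, Calml4 and Folr1) were above their WT medians, and Enpp2, Kl and Sostdc1 were below theirs.

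Across all pairs of the 10 genes the median r was 0.24 in WT mice, with a range of -0.45 to 0.83 over 45 pairs. In KO mice the median r was 0.74, and without mouse 11 it was 0.52, with 44 of 45 pairs above 0. These pairs share libraries and are given as a description.

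Several of the 10 genes have known sources other than the plexus, and their levels were compared with 8 marker lists of other cells and regions, as the mean log2 CPM of each list. There were 160 relations in both genotypes, adjusted together. The KO values also chose the genes, so relations in KO mice are given as a description, without p values. None of them is counted as support, whatever its size. In the 17 WT mice Enpp2 followed the oligodendrocyte list (Mbp, Mog, Mag, Mobp and others) at r = 0.87 (permutation p = 1e-05, the smallest possible, adjusted p = 0.0016) and rho = 0.93 (permutation p = 1e-05, adjusted p = 0.0016). Without the 2 WT mice farthest from that list's median, r was 0.79. In the 13 KO mice the relation of Enpp2 with the oligodendrocyte list had r = 0.52 and rho = 0.73. The summed oligodendrocyte list lay between 1650 and 2855 CPM in KO and between 1584 and 2648 CPM in WT mice. Mouse 11 ranked 8 of 30 at 2305 CPM. At an unadjusted p under 0.05, 0 of 7 markers differed between genotypes, where 5.03% of all genes did.

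Folr1 and Calml4 followed the ependymal cell list (Foxj1, Ccdc153, Tmem212, Rsph1 and others), which marks the ciliated cells that line the ventricle. Both relations rest on few counts, from 1 to 18 per WT mouse for Folr1, which did not pass the filter, and from 0 to 28 for Calml4. In WT mice Folr1 had r = 0.84 (permutation p = 2e-05, adjusted p = 0.0016) and rho = 0.83 (permutation p = 8e-05, adjusted p = 0.0064), and r was 0.70 without the 2 farthest mice. Calml4 had r = 0.79 (permutation p = 0.00024, adjusted p = 0.0128) and rho = 0.73 (permutation p = 0.00111, adjusted p = 0.0444), and r was 0.52 without the 2 farthest mice. In KO mice the same relations had r = 0.67 for Folr1 and r = 0.77 for Calml4. With Ttr both genes had r = 0.81 and r = 0.72 in KO mice. Ttr itself had r = 0.37 with the ependymal list in WT mice (adjusted permutation p = 0.528) and r = 0.30 in KO mice.

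Kl is made by neurons and had r = 0.69 with the hippocampal neuron list in WT mice (permutation p = 0.00223, adjusted p = 0.051). Its rho was 0.60 (adjusted permutation p = 0.156), and neither passed. In KO mice the r of Kl with the neuron list was -0.07. With the oligodendrocyte list Kl had r = 0.62 and rho = 0.85 there. 1500015O10Rik had r = 0.84 and rho = 0.74 with the meningeal fibroblast list in KO mice, and r = 0.69 without the 2 farthest mice. Its r with that list was 0.25 in WT mice. Clic6, Prlr, Sostdc1, Cldn2 and Ttr had no relation with these lists that passed after adjustment in WT mice. Cldn2 had r = -0.70 with the oligodendrocyte list in WT mice (adjusted permutation p = 0.051). Enpp2 had r = -0.64 with the border macrophage list there (adjusted permutation p = 0.0885).

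**Figure D4:**
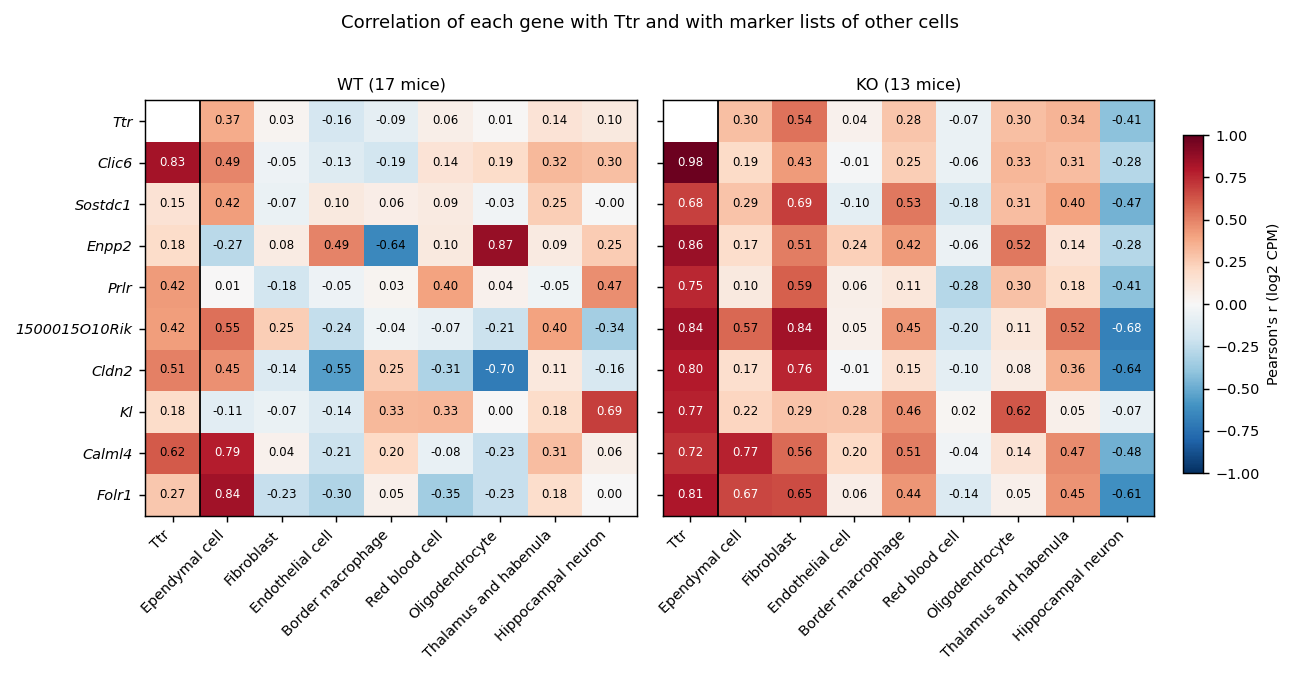
Pearson's r (color, from -1 to 1, with values printed in the cells) of each gene with Ttr and with the mean level of 8 marker lists, in 17 WT mice (left) and 13 KO mice (right), on log2 CPM. In WT mice Clic6 with Ttr (0.83), Enpp2 with oligodendrocytes (0.87), and Calml4 (0.79) and Folr1 (0.84) with ependymal cells stand out, whereas in KO mice the whole Ttr column lies between 0.68 and 0.98.

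Few marker genes were called between genotypes. At an unadjusted p under 0.05 Prox1, a hippocampal neuron marker that was lower in KO, was the only gene called in the 8 lists. Over all genes 5.03% were called in either direction, so with lists this short the count says little. In none of the lists did a gene stay at 0 in every mouse. The summed ependymal list lay between 14.6 and 39.4 CPM in KO and between 16.2 and 36.6 CPM in WT mice, and mouse 11 ranked 10 of 30 at 23.1 CPM. The fibroblast list lay between 26.7 and 102 CPM in KO and between 58.9 and 93.8 CPM in WT mice, with mouse 11 ranked 5 at 90.4 CPM. Dcn made up 46.5 CPM of that sum in mouse 11, near its WT mean of 45.3 CPM. Each other fibroblast marker was above its mean of both genotypes in mouse 11. Lum was at 4.89 against a WT mean of 4.17 CPM, and Col1a2 at 8.88 against 5.2 CPM. Mouse 11 also ranked 5 in the border macrophage list, 3 in the thalamus and habenula list, and lowest of all 30 mice in the hippocampal neuron list at 1017 CPM. The part of these cells in the levels of mouse 11 was not tested.

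Other choroid plexus genes, 34 from a list of transporters, secreted proteins and transcription factors, were measured in the same fit. Of these, 23 passed the filter. In KO, 7 were higher and 1 lower at an unadjusted p under 0.05, where 2.47% and 2.56% of all genes were, and none after adjustment. The median log2 fold change of the 23 was 0.15 with all mice and 0.04 without mouse 11. Among ion and water transporters, Slc4a2 (0.09 ± 0.04), Car14 (0.17 ± 0.07) and the channel Trpv4 (0.43 ± 0.14) were higher and the channel Trpm3 (-0.14 ± 0.04) was lower (log2, SE), with 6 of 10 tested. Of the secreted proteins, Lbp (0.45 ± 0.22), the coagulation factor F5 (1.17 ± 0.33) and Wfikkn2 (0.79 ± 0.33) were higher, with 5 of 5 tested. Of the matrix and surface genes Col8a1 (0.61 ± 0.27) was higher, and no solute transporter or transcription factor tested was called. Without mouse 11 only Trpv4 (0.28 ± 0.11) and F5 (0.68 ± 0.26) of the 23 were still higher, where 2.53% of all genes were. Trpm3 was then lower by 0.17 ± 0.03, with an adjusted p of 0.0518 in edgeR's quasi-likelihood test.

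Among the 11 genes of that list that did not pass the filter, several were near 0 in most mice and high in mouse 11. Those from Kcne2 to Otx2 were picked after their values were seen, and the rest follow them. Kcne2, a potassium channel subunit, was at 5.44 CPM in mouse 11 and at most 0.292 CPM in WT mice. The bicarbonate transporter Slc4a5 was at 5.73 against at most 0.653 CPM, and Tmem72 at 5.58 against at most 0.559 CPM. The potassium channel Kcnj13 was at 4.02 against at most 0.357 CPM, the water channel Aqp1 at 4.19 against at most 0.43 CPM, and Otx2 itself at 2.05 against at most 0.513 CPM. Otx2, at a median of 0.14 CPM in WT mice, had a rho with Ttr of 0.80 over the 17 WT mice and of 0.88 over the 13 KO mice. Of the rest of the 11, Mfrp was at 5.03 CPM in mouse 11 against at most 0.642 CPM in WT mice. The margins were smaller for Lmx1a (0.674 against 0.233 CPM), Steap1 (0.915 against 0.34 CPM) and Krt18 (1.2 against 0.466 CPM). Krt8 was at 0.626 CPM in mouse 11, where the highest KO mouse was at 0.753 CPM and the highest WT mouse at 0.433 CPM.

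Over all other genes tested, Clic6 ranked 10th of 16485 by its rho with Ttr in WT mice and 1st in KO mice. The 10 genes outside the list with the highest rho in WT mice, Polr2l, Aars2, Zgpat, Fam131c, 5430400D12Rik, Dtd2, Sgf29, A330009N23Rik, Plpp5 and Ctf1, had rho between 0.74 and 0.83 there. In the 13 KO mice, which did not choose them, their median rho was 0.03, from -0.60 for Fam131c to 0.35 for 5430400D12Rik. The 8 genes tested other than Ttr had a median rho with Ttr of 0.35 in WT and 0.66 in KO mice. The KO values chose these genes, so their ranks there are descriptive. In KO mice Enpp2 ranked 18th, Calml4 26th, Cldn2 108th and 1500015O10Rik 134th among all genes, and Sostdc1 ranked 2426th. Clic6 was among the 10 most like Ttr in both genotypes. The 10 genes outside the list were picked as the highest in WT mice, so a lower rho in KO mice follows from that choice. It sets no standard for Clic6. Genes below the filter were not ranked, among them Otx2, with a rho of 0.80 in WT and 0.88 in KO mice.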

How the data were processed

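Poly(A)-selected libraries of hippocampus from 13 TIMP2 KO and 17 WT mice had been read in paired-end mode. According to the submitters' processing notes, reads were trimmed with Trimmomatic 0.36, aligned to GRCm38 with STAR 2.5.2b and counted with featureCounts of Subread 1.5.2, and the authors deposited raw counts per gene and mouse with no normalization. The strand setting and the Ensembl release were not given in the sources used here. All 30 columns matched a mouse, 0 columns were left over, and 0 pairs of mice had identical counts. Depth ran from 18345517 to 41081083 counts per mouse. The common biological coefficient of variation was 7.5%.

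Symbols and GRCm38 positions came from GENCODE M21. All genes were fitted in edgeR 4.0.16 (R 4.3.3) with TMM factors, filterByExpr as the filter on low counts and its quasi-likelihood test, with genotype as the only term, and for sex with genotype and sex. Log2 CPM used a prior count of 2. Alternatives were DESeq2 1.42.0, RLE size factors, sex as a covariate, a minimum of 10 counts per mouse, no filter, each sex alone, WT mice alone, no mouse 11, limma 3.58.1 voom with sample weights, rank correlation, a prior count of 0.5 and a Theil-Sen line. Further sets without mouse 11, or without the 4 mice with the highest Ttr, were added after the data were seen. Correlations were tested by permutation in Python 3.11.15 with numpy 2.4.6, and these tests and the fits were tested on simulated data.

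The genes and all lists were chosen with earlier results of these data known. Named genes were the 10 genes and Timp2, and the other choroid plexus genes with an unadjusted p under 0.05 or below the filter. Those below the filter were named after their values were seen. Also named were the 10 genes with the highest rho with Ttr in WT mice, and leading genes of marker lists. From the oligodendrocyte list 1 marker was left out and is not reported here. The study adjusted part of its own values for harvest date. These dates are not in the labels and could not be fitted.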

Additional observations from a re-analysis of the deposited data

Results flagged for a closer look

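Within each genotype and sex, the highest and the lowest mouse were compared with the rest by Dixon's ratio of the gap to the range. Of 40 groups examined, 4 held such a mouse, where chance gives about 1 in 20, or 2 of 40. In KO females mouse 11 stood above the other 6 in Prlr, at 3.806 on the log2 CPM scale with the next mouse at 2.36, and in Cldn2, at 1.711 with the next at -0.07. In WT males mouse 22 stood below the other 9 in Sostdc1, at 0.8679 on the log2 CPM scale with the next at 1.286. In WT females mouse 21 stood below the others in Calml4, at -3.784 on the log2 CPM scale, which stands for 0 counts, with the next at -1.845. Mouse 21 also had the least Ttr of all mice. Ttr of mouse 11 did not pass the same ratio, with mouse 5 as the next KO female below it.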

How the results depend on the processing

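Of the choroid plexus genes, 7 of 9 tested were higher in KO with all mice (2.47% of all genes). With at least 10 counts in every mouse 3 of 4 were (2.33% of all genes), and in females alone without mouse 11, 3 of 8 (2.12%). The log2 fold changes of 1500015O10Rik and Cldn2 turned to -0.01824 and -0.1024 in males alone, and no other gene turned in direction in the KO against WT fits. For the other choroid plexus genes, 7 were higher in KO with all mice. That count was 11 with DESeq2 and 16 with no filter, both of which test more of these genes. It was 4 with at least 10 counts in every mouse, 4 with limma voom, 2 in males alone, 2 without mouse 11, 3 without mouse 11 and with sex as a covariate, and 1 in females alone without mouse 11. The cause of the limma value was not tested.

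By sex, Ttr turned from 0.86 to -0.6178 without mouse 11 and to -1.164 in WT mice alone. Without mouse 11 Enpp2 turned to -0.005101, Prlr to -0.08983 and Cldn2 to -0.04129, and in WT mice alone Prlr turned to -0.2029 and 1500015O10Rik to -0.3242. None of these passed at an unadjusted p under 0.05. Of the genes whose adjusted p for r with Ttr was under 0.05, 2 in WT mice became 1 by rank or without the 2 farthest mice, and 9 in KO mice became 4 without mouse 11 and 1 without the 2 farthest or the 4 highest mice. The KO mice also chose the genes, so none of these counts in KO mice is independent support. Counting limits Calml4, Folr1 and the other genes near 0 in most mice. No paired analysis was possible because the labels give no pairing of KO and WT mice.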
